A study of Mus musculus with 9 samples.

Results

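Intraflagellar transport (IFT) and BBSome genes encode the machinery that builds and maintains cilia and flagella. IFT trains are polymers of the IFT-A and IFT-B complexes that motors carry along the axonemal microtubules, and the BBSome is a coat-like complex that rides on these trains and moves membrane proteins in and out of the cilium. The tectonic proteins sit at the transition zone, the gate at the ciliary base, and the ARL GTPases control the membrane recruitment and release of ciliary cargo. In the testis these proteins are needed for the sperm tail, which is assembled in spermatids, long after the stages profiled here. A total of 37 genes were taken from the 24505 genes of the count table by name: those called Ift or Bbs with a number, the tetratricopeptide genes Ttc8, Ttc21b and Ttc30, the WD-repeat genes Wdr19 and Wdr35, Traf3ip1, Cluap1, Tctn1 to Tctn3, and Arl3, Arl6 and Arl13b. By role they comprised 6 IFT-A, 10 IFT-B1, 6 IFT-B2, 7 BBSome, 2 BBS chaperonin, 3 transition zone and 3 small GTPase genes. The rule used no measured value, and all 37 passed the filter on low counts in each of the 3 comparisons.

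The 9 libraries were poly(A) RNA from testicular germ cells sorted by EGFP. The Uchl1-EGFP transgene puts EGFP under the promoter of Uchl1, which leaves spermatogonia bright and preleptotene (PL) spermatocytes dim. Every animal in all 3 groups, the In/B spermatogonia included, carried the transgene on a C57BL/6 background outcrossed to CD-1, received the retinoic acid (RA) synthesis inhibitor WIN 18,446 at 100 µg/g for 10 consecutive days from postnatal day (P) 1, and was given a single 10 µl injection of RA at 10 µg/µl in DMSO at P11. The groups were type In/B spermatogonia at P17 (EGFP bright), RA-sufficient PL spermatocytes at P19 (EGFP dim), and RA-deficient PL spermatocytes at P19 from mice in which daily WIN 18,446 was continued after the RA injection. There were 3 libraries in each group, from pooled pups, and no label tied a library to an animal or a litter, so the p-values below measure only the spread between these libraries. In/B and PL cells differed in age and in EGFP gate as well as in stage, and these cannot be told apart.

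Total counts were 16872425 to 26684393 in In/B, 12612959 to 21833333 in RA-sufficient PL and 25048240 to 27042274 in RA-deficient PL libraries. Several libraries stood apart. In RA-deficient replicates 1 and 2 Kit, the receptor of differentiating spermatogonia, stood at 561 and 521 CPM (counts scaled to a common library size), against 327 to 404 in In/B cells, whereas replicate 3 had 20.3 CPM and the RA-sufficient libraries 20.2 to 41.0 CPM. The summed level of 8 differentiating-spermatogonia markers was 3501, 3618 and 1402 CPM in RA-deficient replicates 1 to 3, against 3807 to 5404 CPM in In/B and 931 to 1252 CPM in RA-sufficient PL cells. A large part of this sum was Uchl1, whose promoter drives the EGFP used for sorting. It had 1728, 1885 and 991 CPM in the RA-deficient and 2352 to 3657 CPM in the In/B libraries. Dmrtb1, also in the sum, was at 93.5, 81.8 and 65.0 CPM in RA-deficient and 281 to 366 CPM in In/B libraries. The 14 Sertoli-cell markers, all detected, summed to 97.3 to 478 CPM in In/B, 3805 to 5145 CPM in RA-sufficient and 442 to 748 CPM in RA-deficient libraries. RA-sufficient replicate 1 also had the highest sum of 10 pachytene markers, 2041 CPM against 805 and 707 CPM in replicates 2 and 3, with 144 to 271 CPM in In/B and 167, 178 and 536 CPM in RA-deficient libraries. The 12 preleptotene-to-zygotene markers summed to 1873 to 3354 CPM in In/B and to 7186 to 9916 and 9472 to 11211 CPM in RA-sufficient and RA-deficient PL cells. Of the 7 multiciliated-cell markers Sntn and Tmem212 were at 0 in every library, and the other 5 had more than 3 reads in some library. Ccdc67 was at 0.226 to 0.491 CPM in In/B, 2.85 to 6.92 CPM in RA-sufficient and 0 to 0.612 CPM in RA-deficient libraries. Ccno reached 15.0 CPM in RA-deficient replicate 1. The 7 markers together summed to 12.4 to 34.7 CPM.

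**Figure D1:**
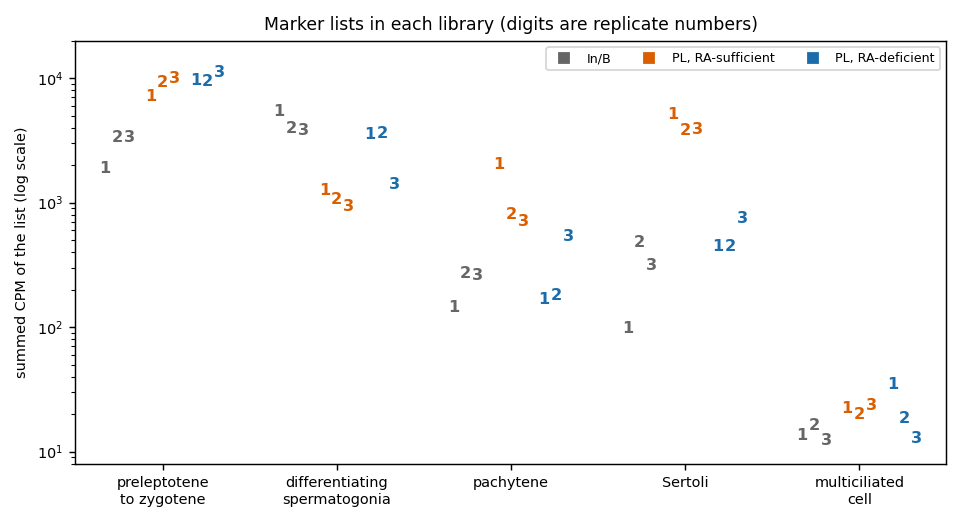
Summed CPM of 5 marker lists in each of the 9 libraries, on a log axis, with each digit giving the replicate number and its color the group. RA-deficient replicates 1 and 2 lie beside In/B for differentiating spermatogonia (3501 and 3618 CPM) while replicate 3 lies at 1402 CPM, and the 3 RA-sufficient libraries lie above all others for Sertoli markers (3805 to 5145 CPM).

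To show a sequence found in the promoters of some of these genes, the RefSeq promoters of mouse build GRCm38.p6 were searched for the X-box. The promoters ran from 250 bases before to 50 after the start. The X-box is the element bound by RFX transcription factors, which regulate many ciliary genes. The search looked for GTNNCC followed by GGNAAC after 0 to 3 bases, on both strands. Of the 37 genes 33 had a promoter, 34 promoters in all, and 9 of these (26.5%) held an X-box, against 770 of 32851 promoters in all (2.34%) and 8 of 71 promoters (11.3%) of axoneme genes. The half-site GTTGCC, which is also part of many of these X-boxes, was found in 15 of the 34 promoters (44.1%), in 38% of axoneme promoters and in 12.5% of all promoters. The genes with an X-box were Bbs1, Bbs4, Bbs7, Ift22, Ift57, Tctn1, Tctn2, Tctn3 and Ttc30a2, and Ift22 and Ift57 had more than one. The following 5 lie upstream of the start and belong to genes with different patterns between the groups, described below. Each is written 5′ to 3′ on the strand of the gene, with the X-box in capitals.
Bbs7 (chr3:36613473-36613534, minus strand): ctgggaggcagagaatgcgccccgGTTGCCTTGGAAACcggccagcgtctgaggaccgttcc
Tctn2 (chr5:124598663-124598724, plus strand): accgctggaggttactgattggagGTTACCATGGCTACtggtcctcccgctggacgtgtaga
Ift22 (chr5:136908093-136908149, plus strand): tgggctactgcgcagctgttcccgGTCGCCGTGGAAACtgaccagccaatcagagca
Ift57 (chr16:49699183-49699244, plus strand): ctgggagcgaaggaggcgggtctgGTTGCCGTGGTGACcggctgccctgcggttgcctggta
Ttc30a2 (chr2:75978180-75978227, minus strand): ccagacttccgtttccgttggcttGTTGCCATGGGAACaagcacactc
The X-box began 121 bases before the start in Bbs7, 62 in Tctn2, 33 in this Ift22 copy, 87 in this Ift57 copy and 24 in Ttc30a2. A match describes these letters and is not a measured binding site.

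Most IFT and BBSome genes were already expressed in In/B spermatogonia. Per kilobase of exon, the highest mean levels over the 9 libraries were those of Ift74, a tubulin-binding IFT-B1 subunit, at 34.6 CPM per kb in In/B, 58.4 in RA-sufficient and 58.6 in RA-deficient PL cells. Ift52 followed with 23.8, 36.9 and 38.7 CPM per kb. Arl3, which releases lipid-anchored cargo inside the cilium, had 27.4, 44.0 and 17.1 CPM per kb. The lowest levels were those of Ttc30b (0.731, 1.43 and 0.422 CPM per kb) and Ttc30a2 (0.280, 3.14 and 0.357 CPM per kb). The subunits of 1 complex were not at 1 level: within IFT-A the In/B means ran from 3.31 CPM per kb for Wdr19 to 15.6 CPM per kb for Ift43. Lengths are those of the merged exons of GENCODE M1, and Ttc30a1, Ttc30a2 and Ttc30b are near-identical neighbors on chromosome 2 whose reads can be split between them, so their values are uncertain.

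**Figure D2:**
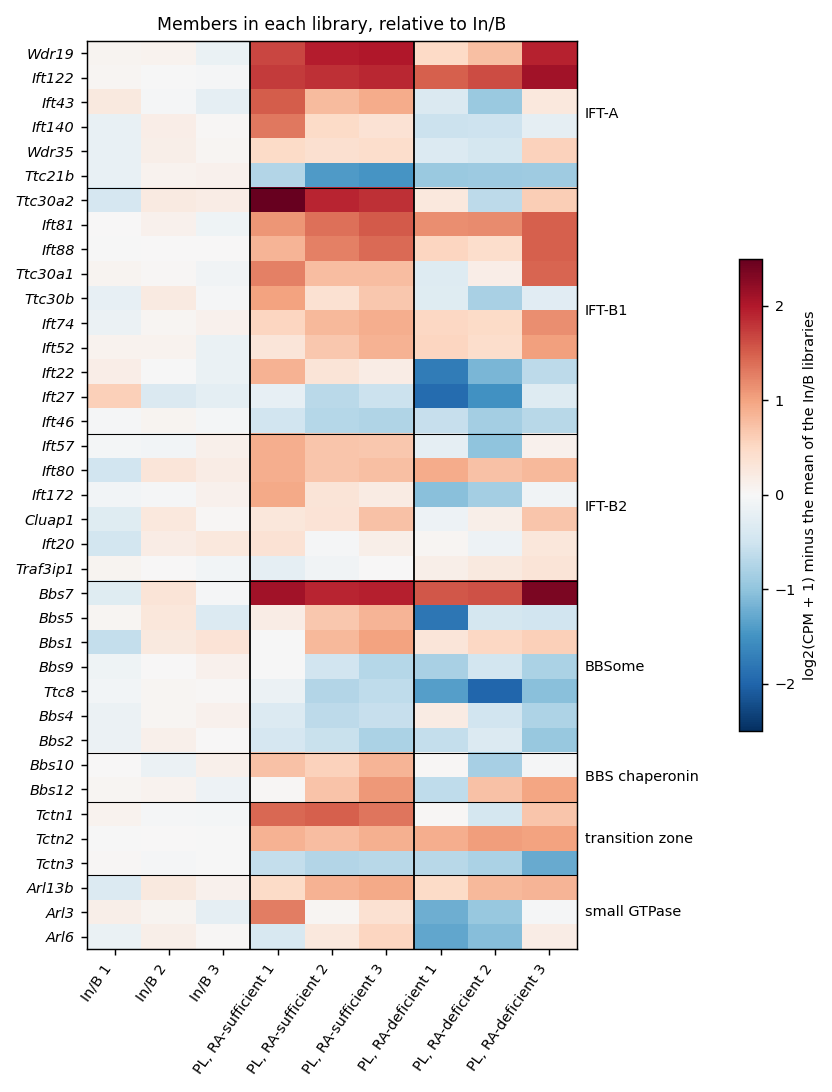
Level of each of the 37 genes in each library as the difference in log2(CPM + 1) from the mean of the 3 In/B libraries, ordered by role. Ift122, Ift81 and Bbs7 are red in all 6 PL libraries, and Ttc21b and Ift46 are blue in all 6. Ift140, Ift172, Ift22 and Ift57 are above 0 in the RA-sufficient libraries and pale or blue in the RA-deficient ones. RA-sufficient replicate 1 is at 0.94 for Ift172 and 0.87 for Ift22, whereas replicates 2 and 3 are pale (0.31 and 0.20, 0.32 and 0.19). RA-deficient replicate 3 is nearest to RA-sufficient cells for Wdr19 and Ift88.

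The first comparison asked which of these genes change as In/B spermatogonia become RA-sufficient PL spermatocytes. A gene was called changed when the absolute log2 fold change was above 1 and the adjusted p below 0.05, where p came from the quasi-likelihood test of edgeR and was adjusted by Benjamini-Hochberg (BH) over all genes tested. Of the 37 genes 10 rose and 1 fell (8 and 1 without RA-sufficient replicate 1), and 26 did not pass. Among the 15001 genes tested 45.4% were called, 26.1% higher and 19.3% lower, so the share of IFT and BBSome genes that rose was near the background. On an adjusted p alone 20 were higher and 5 lower, where 65% of all genes passed (33.8% higher and 31.2% lower). The median log2 fold change of the 37 was 0.74 against 0.04 for all genes, with 28 positive. The libraries of the groups did not overlap for 28 of the 37 genes, where the background was 71.5%. The Sertoli and pachytene marker sums given above were higher in the RA-sufficient libraries as well, and their part in these differences was not tested. In bulk samples fewer cells of a type and less RNA per cell cannot be told apart.

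All of the called IFT-A genes except Ttc21b rose. Ift122 (mm9 chr6:115803488-115876717), a core IFT-A subunit, stood at 54.1, 52.0 and 51.0 CPM in In/B and at 178, 188 and 196 CPM in RA-sufficient PL libraries. The groups were far apart, and the log2 fold change was 1.89 ± 0.11 (SE; edgeR, BH-adjusted p = 1.1e-05). Wdr19 (chr5:65590935-65651654), another core subunit, went from 15.3, 15.5 and 12.9 CPM to 48.4, 59.5 and 61.0 CPM, with a log2 fold change of 2.00 ± 0.17 (edgeR, BH-adjusted p = 3.29e-05). Ift43 (chr12:87423513-87503408), a small peripheral subunit, went from 15.4, 12.6 and 10.8 CPM to 38.3, 22.8 and 25.1 CPM, a log2 fold change of 1.20 ± 0.26 (edgeR, BH-adjusted p = 0.00343). In contrast Ttc21b (chr2:66022384-66094674), also a peripheral subunit, was at 112, 136 and 137 CPM in In/B and 76.4, 47.5 and 45.3 CPM in PL cells, and fell by 1.13 on the log2 scale (SE 0.21; edgeR, BH-adjusted p = 0.00152). Without RA-sufficient replicate 1 the log2 fold change of Ift43 was 0.93, and without replicate 3 that of Ttc21b was -0.99, both short of the fold threshold. The remaining IFT-A genes did not reach the fold threshold, with log2 fold changes of 0.84 for Ift140 and 0.50 for Wdr35.

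Among IFT-B genes the called ones were all IFT-B1 subunits, 5 of 10, and 0 of the 6 IFT-B2 genes were called by edgeR or by DESeq2, although 3 of these had an adjusted p, and 4 an unadjusted p, below 0.05. Ift81 (chr5:123000213-123064527), the partner of Ift74 in tubulin binding, rose from 47.5, 50.8 and 44.0 CPM to 104, 124 and 139 CPM, with a log2 fold change of 1.42 ± 0.14 (edgeR, BH-adjusted p = 6.54e-05). Ift88 (chr14:58042899-58136773), without which cilia do not form, was at 43.3, 44.4 and 43.9 CPM in In/B and at 80.2, 107 and 119 CPM in PL cells, a log2 fold change of 1.27 ± 0.16 (edgeR, BH-adjusted p = 0.000204). The groups did not overlap for either gene. The Ttc30 genes, which encode a tubulin-glutamylation-linked IFT-B subunit, rose together in these counts. Ttc30a2 had 3, 22 and 14 reads in In/B and 145, 80 and 103 reads in PL libraries, which gave a log2 fold change of 3.50 with a wide 95% interval of 2.12 to 4.89. Ttc30a1 went from 6.09, 5.90 and 5.43 CPM to 15.4, 10.7 and 10.6 CPM (log2 fold change 1.13) and Ttc30b from 1.51, 2.38 and 1.81 CPM to 4.78, 2.73 and 3.62 CPM (log2 fold change 1.01). The call of Ttc30b was lost with the 9 libraries in 1 fit (adjusted p = 0.159 in edgeR), without the filter on low counts, and in 5 of 6 fits with 1 library left out (log2 fold change 0.79 to 1.19 over the 6). It held in the fit without RA-sufficient replicate 2. The call of Ttc30a1 was lost with the 9 libraries in 1 fit (adjusted p = 0.084 in edgeR) and without RA-sufficient replicate 1 (log2 fold change 0.92). Ift74, Ift52 and Ift22 had log2 fold changes of 0.81, 0.69 and 0.57, whereas those of Ift46 and Ift27 were -0.59 and -0.54. The IFT-B2 genes, which form the peripheral part of the train that contacts the kinesin, ranged from -0.05 for Traf3ip1 through 0.19 for Ift20, 0.51 for Cluap1, 0.58 for Ift172 and 0.82 for Ift80 to 0.86 for Ift57.

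Of the 7 BBSome genes 1 was called. Bbs7 (chr3:36472064-36512399) rose from 14.4, 22.9 and 17.7 CPM to 81.1, 70.6 and 72.6 CPM, with a log2 fold change of 2.08 ± 0.19 (edgeR, BH-adjusted p = 3.91e-05). The other BBSome subunits were spread around 0: Bbs1 and Bbs5 at 0.68 and 0.69, Bbs9 at -0.32, Bbs4 and Ttc8 at -0.47 and Bbs2 at -0.55 on the log2 scale, so that the BBSome median was -0.32. The chaperonin-like genes Bbs10 and Bbs12, which help to assemble the complex, had log2 fold changes of 0.87 and 0.80. At the transition zone Tctn1 (chr5:122691296-122714469) rose from 10.2, 9.38 and 9.16 CPM to 27.5, 28.9 and 25.7 CPM, a log2 fold change of 1.57 ± 0.19 (edgeR, BH-adjusted p = 0.000152), while Tctn2 and Tctn3 had 0.91 and -0.65. Tctn1 shares 549 bases, 20.4% of its exons, with Hvcn1 on the opposite strand, and whether strand was used in counting is not given in the sources used here. The GTPases had 0.83 for Arl13b, 0.74 for Arl3 and 0.25 for Arl6, the GTPase that recruits the BBSome.

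**Figure D3:**
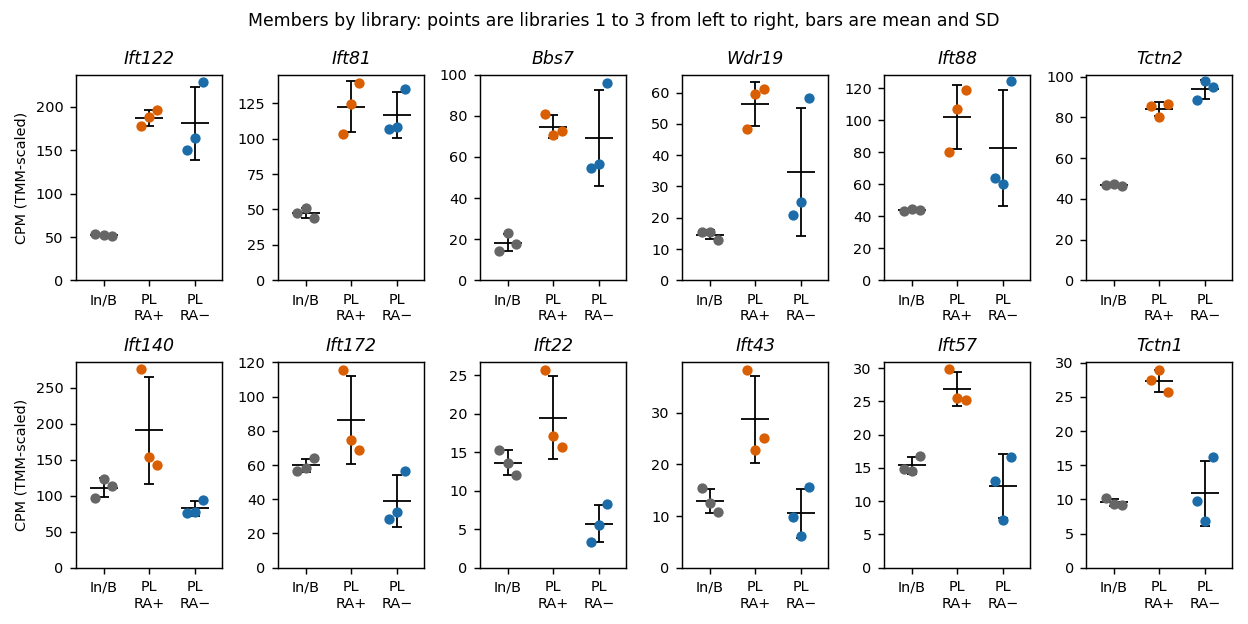
CPM of 12 genes in each library of In/B, RA-sufficient PL (RA+) and RA-deficient PL (RA−) cells, with points for replicates 1 to 3 from left to right and bars for the mean and SD (n = 3). In the upper row Ift122, Ift81, Bbs7, Wdr19, Ift88 and Tctn2 are above In/B in all 6 PL libraries. In the lower row Ift140, Ift172, Ift22, Ift43, Ift57 and Tctn1 are lower in each RA-deficient library than in every RA-sufficient one.

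The second comparison set RA-deficient PL spermatocytes against the same In/B libraries. Of the 37 genes 6 rose and 1 fell, where 23.2% of the 14877 genes tested were called (11.4% higher and 11.8% lower). On an adjusted p alone 10 were higher and 5 lower, where 36.7% of all genes passed (18.4% higher and 18.3% lower). The median log2 fold change was 0.17 against 0.00 for all genes, and 19 genes were positive. The libraries of 22 genes did not overlap between the groups, where the background was 54.6%. With libraries scaled by their size alone 3 were called higher and 4 lower, and without RA-deficient replicate 3 the calls were 4 higher and 4 lower and the median was -0.23.

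IFT-A, IFT-B1, BBSome and transition zone genes were among those that rose. Ift122 stood at 150.0, 164 and 229 CPM in RA-deficient PL libraries, with a log2 fold change of 1.96 ± 0.18 from In/B (edgeR, BH-adjusted p = 0.000191). Bbs7 stood at 54.9, 56.6 and 96.0 CPM, with 2.08 ± 0.28 (edgeR, BH-adjusted p = 0.000987), and Ift81 at 107, 108 and 135 CPM, with 1.47 ± 0.15 (edgeR, BH-adjusted p = 0.000308). For these genes every RA-deficient library was above every In/B library, and the calls held with each library left out in turn. They fell outside the rule that chose the genes for full values and are given after their values were seen. Tctn2 (chr5:125048758-125077658) was at 46.6, 47.3 and 46.1 CPM in In/B and 88.7, 97.8 and 94.7 CPM in RA-deficient PL cells, with a log2 fold change of 1.17 ± 0.13 (edgeR, BH-adjusted p = 0.000485).

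Wdr19 and Ift88 were uneven among the RA-deficient libraries. Wdr19 had 20.8, 25.2 and 58.2 CPM, with replicate 3 inside the RA-sufficient range and replicates 1 and 2 between it and In/B, and its log2 fold change was 1.42 ± 0.39 (edgeR, BH-adjusted p = 0.0232). Ift88 had 64.0, 60.0 and 125 CPM and a log2 fold change of 1.08 ± 0.28 (edgeR, BH-adjusted p = 0.0186). Both calls were lost with libraries scaled by size alone and without any one of the In/B libraries, and without RA-deficient replicate 3 the log2 fold changes were 0.83 for Wdr19 and 0.67 for Ift88. That of Ift88 was also lost with the 9 libraries in 1 fit (0.96), and it held in only 3 of the 6 alternatives that kept every library. The gene that fell was Ttc8 (chr12:100158784-100221448), a BBSome subunit, from 12.9, 14.1 and 13.8 CPM to 4.64, 2.69 and 6.03 CPM, by 1.44 on the log2 scale (SE 0.37; edgeR, BH-adjusted p = 0.0181), with the call lost without In/B replicate 2 or 3 (edgeR, adjusted p = 0.071 and 0.0742). Ttc21b, at 67.2, 68.0 and 68.5 CPM, had a log2 fold change of -0.75, below the fold threshold, while its adjusted p was 0.00338 in edgeR.

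The uneven level of replicate 3 ran through the set. It was the highest of the 3 RA-deficient libraries for 28 of the 37 genes (75.7%), where it was the highest for 42.2% of the 15352 genes tested between the PL groups. It was the lowest for 3 (8.11% against 38.1%). Other libraries also stood apart in the set. RA-deficient replicate 1 was the lowest for 20 genes (54.1% against 26.4%). RA-sufficient replicate 1 was the highest of its group for 21 genes (56.8% against 41.1%) and RA-sufficient replicate 2 for 1 (2.7% against 26.1%). The median coefficient of variation of the 37 genes was 35.8% among RA-deficient libraries, 17.99% among RA-sufficient and 10.1% among In/B libraries, against 28.4%, 18.8% and 17.3% over all those genes. RA-deficient replicate 3 is also the library of its group in which the spermatogonial markers were low. Whether these values are related was not tested.

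The third comparison set RA-deficient against RA-sufficient PL cells, which also differed in several of the marker sums given above. Of the 37 genes 6 fell (Ift140, Ift22, Tctn1, Ift43, Ift172 and Ift57) and 0 rose by edgeR. At an unadjusted p below 0.05 there were 12 lower and 1 higher, and DESeq2 called 11 lower and 0 higher. By edgeR 15.5% of the 15352 genes tested were called, 4.47% higher and 11% lower. The shares of all genes at an unadjusted p and by DESeq2 were not counted, here or for the lists below. Altogether 30 of the 37 log2 fold changes were negative, with a median of -0.30 against -0.09 for all genes. The libraries of 14 genes did not overlap, where the background was 47.4%. Sertoli markers moved the same way, with 14 of 14 called lower in RA-deficient cells and sums of 442 to 748 against 3805 to 5145 CPM. The pachytene sum was lower as well. Of 8 differentiating-spermatogonia markers 5 were called higher and 1 lower in RA-deficient cells, with a median log2 fold change of 1.70. In log2(CPM + 1), RA-deficient replicates 1 and 2 correlated at 0.92 to 0.93 with In/B and at 0.86 to 0.90 with RA-sufficient libraries. For RA-deficient replicate 3 these correlations were 0.87 to 0.89 and 0.90 to 0.94. The part of these differences in the result was not tested.

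The 6 genes that fell belong to IFT-A, IFT-B1, IFT-B2 and the transition zone, and 0 of the 7 BBSome genes were called by edgeR, with 2 lower at an unadjusted p below 0.05 and Bbs5 called by DESeq2. Ift140 (chr17:25153036-25236440), a core IFT-A subunit, was at 276, 154 and 142 CPM in RA-sufficient and 75.8, 77.3 and 93.8 CPM in RA-deficient libraries. The groups did not overlap, although RA-sufficient replicate 1 was well above replicates 2 and 3. The log2 fold change was -1.23 (95% interval -1.90 to -0.56; edgeR, BH-adjusted p = 0.022), and -0.83 without that library. Ift43 of the same complex had 38.3, 22.8 and 25.1 CPM against 9.80, 6.22 and 15.7 CPM, a log2 fold change of -1.46 (-2.41 to -0.51; edgeR, BH-adjusted p = 0.0384).

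In IFT-B, Ift22 (chr5:137384020-137389114), a small GTPase-like subunit, had 25.6, 17.2 and 15.7 CPM in RA-sufficient and 3.36, 5.59 and 8.22 CPM in RA-deficient libraries. Every RA-deficient library was also below every In/B library (15.3, 13.5 and 12.0 CPM). Its log2 fold change between the PL groups was -1.78 (-2.76 to -0.80; edgeR, BH-adjusted p = 0.0232), the most negative of the 6. Ift172 (chr5:31555653-31593487), the largest IFT-B2 protein, had 116, 74.4 and 68.8 CPM against 28.3, 32.5 and 56.5 CPM, a log2 fold change of -1.16 (-1.94 to -0.38; edgeR, BH-adjusted p = 0.0434). Ift57 (chr16:49699346-49765239), which links the train to the kinesin motor, had 29.8, 25.5 and 25.2 CPM against 13.04, 7.13 and 16.6 CPM, a log2 fold change of -1.14 (-1.94 to -0.34; edgeR, BH-adjusted p = 0.049). Its call was lost with another scaling (edgeR with RLE factors, adjusted p = 0.0527). Tctn1 had 27.5, 28.9 and 25.7 CPM against 9.80, 6.78 and 16.1 CPM, a log2 fold change of -1.34 (-2.15 to -0.53; edgeR, BH-adjusted p = 0.0311), with the RA-deficient values around those of In/B (9.16 to 10.2 CPM).

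These calls rested on few libraries. Leaving out RA-deficient replicate 3, the library with low Kit, raised the count from 6 to 16 genes lower. Leaving out any other PL library brought it to at most 1. The share of all genes called in these fits was not counted, so the 16 has no background beside it. Without RA-sufficient replicate 1 the log2 fold changes of the 6 genes remained between -1.50 and -0.83. Another 6 genes were at least 2-fold lower in RA-deficient cells without passing the edgeR test, and DESeq2 called all of these but Ttc8. They were Ttc30a2 (log2 fold change -3.16, with 145, 80 and 103 reads against 22, 0 and 32), Ttc30b (-1.76), Bbs5 (-1.58), Arl3 (-1.39), Ttc8 (-1.10) and Bbs10 (-1.09), and none of them overlapped between the groups. Bbs5, which binds phosphoinositides for the BBSome, had 9.20, 13.5 and 15.4 CPM against 1.56, 5.63 and 5.47 CPM (edgeR, BH-adjusted p = 0.0678).

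**Figure D4:**
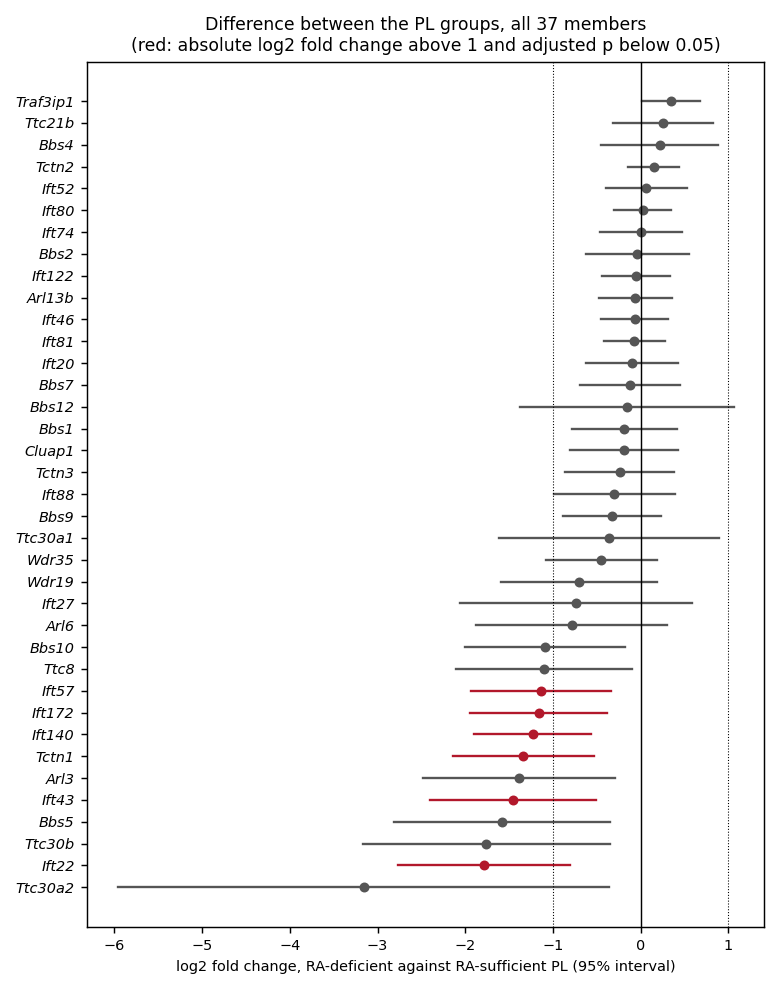
Log2 fold change of RA-deficient against RA-sufficient PL cells with its 95% interval for all 37 genes, sorted, with called genes in red and dotted lines at the fold threshold on either side of 0. The 6 called genes lie between -1.78 and -1.14, Ttc30a2 lies lowest at -3.16 with an interval that reaches from -5.96 to -0.36, and the narrow intervals of Ift122, Ift81 and Ift80 cover 0.

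Other genes of the set had narrow intervals around 0 between the PL groups. The log2 fold change was -0.05 (95% interval -0.44 to 0.33) for Ift122, -0.07 (-0.42 to 0.28) for Ift81, 0.03 (-0.30 to 0.35) for Ift80, -0.07 (-0.45 to 0.31) for Ift46 and -0.06 (-0.48 to 0.36) for Arl13b, an activator of Arl3. For each of these a change of 2-fold lay outside the interval. Bbs7 had -0.12 (-0.69 to 0.44), Tctn2 0.15 (-0.14 to 0.44), Ift74 0.00 (-0.47 to 0.48) and Ift52 0.07 (-0.40 to 0.53). Ift122 and Ift140 of the IFT-A core thus had unlike values between the PL groups, as did the tectonics Tctn2 and Tctn1, although the difference between the genes of a pair was not tested. Traf3ip1 had the highest value, 0.35 (0.02 to 0.68; edgeR, BH-adjusted p = 0.114), with 48.5, 53.4 and 57.2 CPM against 63.6, 67.6 and 72.0 CPM. The remaining genes lay between -0.79 for Arl6 and 0.25 for Ttc21b, and included Ift27 (-0.73), Wdr19 (-0.70), Wdr35 (-0.45), Ttc30a1 (-0.37), Bbs9 (-0.33), Ift88 (-0.30), Tctn3 (-0.24), Bbs1 and Cluap1 (-0.19), Bbs12 (-0.16), Ift20 (-0.10), Bbs2 (-0.04) and Bbs4 (0.22).

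The comparisons share their libraries, and the values are therefore given side by side. Over the 3 comparisons 17 of the 37 genes were called at least once and 20 were not called in any. Bbs7, Ift122, Ift81, Ift88 and Wdr19 rose from In/B in both PL groups, although the calls of Ift88 and Wdr19 in RA-deficient cells were lost under several alternatives. Ift43 and Tctn1 rose in RA-sufficient cells and fell between the PL groups, with log2 fold changes of -0.13 and 0.35 from In/B to RA-deficient cells. The other 4 genes that fell between the PL groups, Ift140, Ift172, Ift22 and Ift57, were not called against In/B in either PL group by edgeR. For Ift22 the log2 fold change from In/B to RA-deficient cells was -1.09 (edgeR, BH-adjusted p = 0.06). DESeq2 called that change lower (DESeq2, adjusted p = 0.0295). Of the 9 genes with an X-box, Bbs7 and Tctn2 were called higher in RA-deficient cells against In/B, Ift22, Ift57 and Tctn1 were called lower between the PL groups, Ttc30a2 was called higher in RA-sufficient cells against In/B, and Bbs1, Bbs4 and Tctn3 were not called in any comparison.

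Genes with low levels had the more negative values between the PL groups, in this set as over all genes. Of the 11 genes with a mean of 5 to 20 CPM 4 were called lower, where 17.7% of all 3513 genes at that level were called lower. The median log2 fold change of the 11 was -1.10 against -0.39 for all genes at that level. The 11 genes at 50 to 100 CPM had a median of -0.07 against 0.09, and the 5 at 100 CPM or more a median of -0.05 against 0.28. The split by level was chosen after the values were seen.

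The rule set these cilium assembly genes beside axoneme genes, here 75 genes in 5 lists. The lists were axonemal dyneins, their assembly factors, radial spoke and ruler proteins, central pair proteins, and tektins and outer dense fibers. Some of the genes, such as Dnaaf1 and Akap4, do not encode parts of the axoneme itself. In RA-sufficient PL cells 52 of the 70 axoneme genes tested rose from In/B (background 26.1%) and 1 fell, with a median log2 fold change of 2.67, against 10 of 37 and 0.74 for the assembly genes. In RA-deficient cells 7 of 65 rose, near the background of 11.4%, with a median of 0.60, and 0 fell by edgeR (3 at an unadjusted p below 0.05, and 2 by DESeq2). Between the PL groups 8 of 73 fell, near the background of 11%, and 0 rose by edgeR or DESeq2. At an unadjusted p below 0.05 there were 38 lower and 2 higher, and the share of all genes at that threshold was not counted. Of the 73 log2 fold changes 67 were negative, with a median of -1.93 against -0.30 for the assembly genes. Without RA-deficient replicate 3 the axoneme count between the PL groups was 58, and that of RA-deficient cells against In/B was 5 higher and 13 lower. The share of all genes called without this library was not counted. Scaling by library size alone gave 5 higher and 3 lower in RA-deficient cells against In/B. The difference between the lists was not tested.

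Tekt1, a tektin of the doublet microtubules, had 44.6, 24.7 and 22.5 CPM in RA-sufficient and 2.36, 0.475 and 3.41 CPM in RA-deficient PL cells, a log2 fold change of -3.90 (edgeR, BH-adjusted p = 0.00955). Dnah8, a dynein heavy chain of the sperm tail, had 1369.6, 379.7 and 296 CPM against 84.3, 72.9 and 212 CPM, with RA-sufficient replicate 1 far above the others. Dnaaf1, a dynein assembly factor, went from 6.21, 13.6 and 17.4 CPM in In/B to 211, 142 and 121 CPM in RA-sufficient cells, a log2 fold change of 3.73. Across the axoneme lists the medians from In/B to RA-sufficient cells ran from 2.20 for axonemal dyneins to 3.45 for tektins and outer dense fibers. The highest median among the assembly roles was 1.02, for IFT-A.

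**Figure D5:**
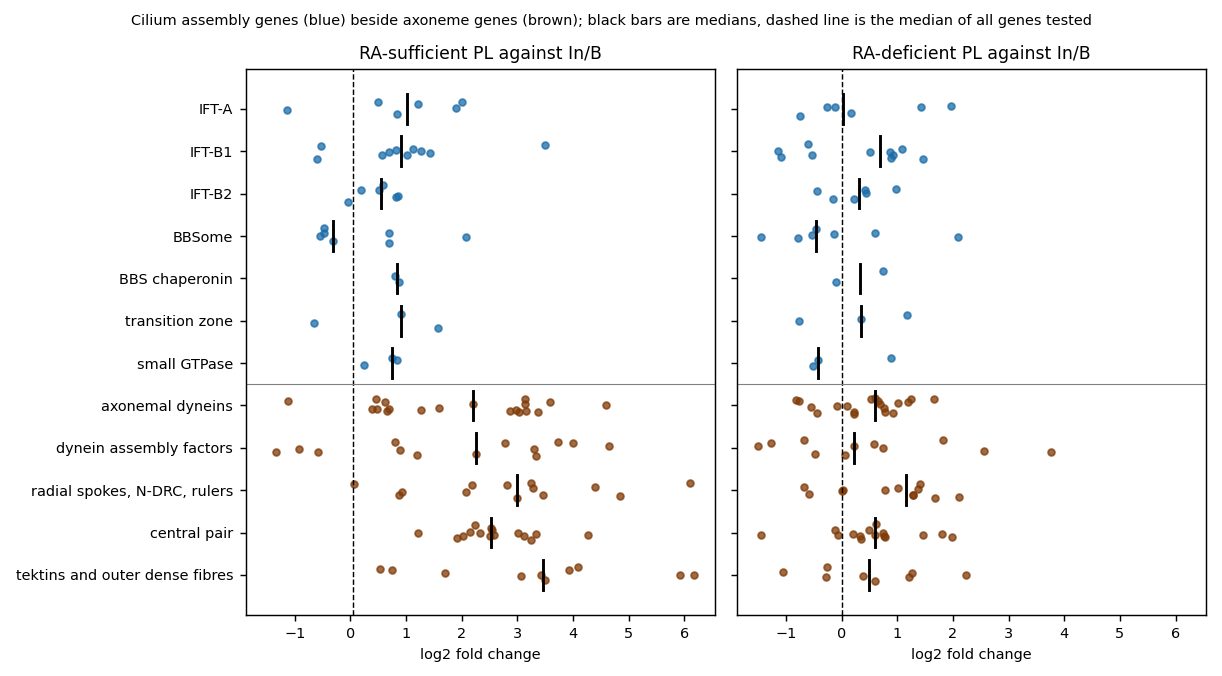
Log2 fold changes from In/B of each IFT, BBSome, transition zone and GTPase gene (blue) and each axoneme gene (brown), by role or list, in RA-sufficient (left) and RA-deficient (right) PL cells, with black bars for medians and a dashed line for all genes. The axoneme medians lie between 2.20 and 3.45 on the left and nearer to 0 on the right, while those of the assembly genes lie between -0.32 and 1.02 on the left.

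The proteins that work with the IFT and BBSome genes were taken from lists of their own. Of 14 IFT motor subunits 4 rose and 3 fell from In/B to RA-sufficient cells, where 26.1% of all genes were called higher and 19.3% lower. Between the PL groups, where the background was 11% lower and 4.47% higher, 1 fell and 0 rose by edgeR (4 were lower and 4 higher at an unadjusted p below 0.05). That gene was Kif3b, a kinesin-2 motor subunit, with 149, 109.7 and 94.0 CPM against 34.4, 31.2 and 48.4 CPM, a log2 fold change of -1.64 (edgeR, BH-adjusted p = 0.00568). Its partner Kif3a had a log2 fold change of 0.57 in the same comparison. Of 13 other IFT and BBS proteins 1 fell between the PL groups, the small BBSome subunit Bbip1, with 56.3, 41.5 and 45.1 CPM against 18.2, 13.8 and 26.3 CPM and a log2 fold change of -1.30 (edgeR, BH-adjusted p = 0.019). Other transition zone proteins were also called in both directions, and 3 of 22 fell, among them Tmem231, which fell by 1.55 on the log2 scale. The background of 11% lower and 4.47% higher also applies to these lists and to those below.

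Among 9 partners of the ARL GTPases there were calls in both directions between the PL groups, and the 2 that fell were Unc119, a carrier of myristoylated proteins that Arl3 unloads, with 74.8, 56.9 and 62.9 CPM against 25.0, 22.2 and 16.0 CPM, and Arl2bp, an effector of the ARL GTPases, with 82.6, 70.5 and 70.4 CPM against 35.6, 31.5 and 31.8 CPM. Their log2 fold changes were -1.63 and -1.18. Of 20 basal body and distal appendage proteins 2 fell, near the background of 11%: Fam161a (-2.85) and Dzip1 (-1.71). Of 15 transcription factors of ciliary genes tested 1 rose, Rfx1, with 39.8, 52.8 and 59.3 CPM in RA-sufficient and 151, 145 and 106 CPM in RA-deficient cells, a log2 fold change of 1.41 (edgeR, BH-adjusted p = 0.00397). Rfx2, which is needed for spermiogenesis, rose from 32.9, 37.6 and 39.2 CPM in In/B to 100.0, 73.7 and 78.0 CPM in RA-sufficient cells and was at 39.6, 36.0 and 67.9 CPM in RA-deficient cells, where the log2 fold change between the PL groups was -0.82 (edgeR, BH-adjusted p = 0.072). Of 11 Hedgehog pathway genes 9 had a positive log2 fold change between the PL groups (median 0.85). By edgeR 0 of them rose, although 6 were higher at an unadjusted p below 0.05. The gene that fell was the ligand gene Dhh, which is a Sertoli marker, at 97.2, 71.9 and 67.6 CPM against 4.20, 1.70 and 13.1 CPM.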

How the data were processed

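The authors deposited raw read counts per gene, without normalization, for the 9 libraries. Per the paper's methods, stranded poly(A) libraries were read single-end (75 bp), trimmed with cutadapt 1.9, aligned to mm9 with STAR 2.5.2b and counted with featureCounts. The annotation and strand setting are not given in the sources used here. Groups came from the sample titles. Counts were filtered (filterByExpr), scaled (TMM) and tested in each pair of groups with edgeR 4.0.16 (quasi-likelihood, R 4.3.3). P-values were BH-adjusted over all genes tested. CPM were computed from the counts with TMM scaling. The script was tested on simulated data. Alternatives were DESeq2 1.42.0, other scalings, no filter, the 9 libraries in 1 fit, a replicate block, other thresholds and each library left out. Coordinates are from GENCODE M1, where 35 genes were found under their name and 2 under an older one. A count of 3 reads, taken as the detection floor, is 0.112 to 0.178 CPM in In/B libraries, and intervals cover only the variation between libraries. The members and lists were chosen with earlier results of these data known. Full values are given for up to 14 called members without overlap, by p between the PL groups, and for other lists up to 3 genes with the lowest p. Additional examples (Ift81, Ift122, Bbs7, Rfx2, the axoneme genes shown and markers) were chosen after their values were seen. The result of 1 listed gene is not reported here.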

Additional observations from a re-analysis of the deposited data

Results flagged for a closer look

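The change from In/B spermatogonia differed between RA-sufficient and RA-deficient PL cells for 6 genes by edgeR's test of the difference. The log2 fold changes between the PL groups were -1.23 for Ift140, -1.78 for Ift22, -1.34 for Tctn1, -1.46 for Ift43, -1.16 for Ift172 and -1.14 for Ift57. Groups of 3 libraries are too small for a test of single libraries that stand apart.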

How the results depend on the processing

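Calls among the 37 genes from In/B to RA-sufficient PL cells numbered 9 to 11 under every alternative except an adjusted p alone (25), and the median stayed between 0.69 and 0.77. Against RA-deficient cells they numbered 15 on an adjusted p alone and 4 at 0.01, and the median was -0.15 with library size only and -0.23 to 0.28 with each library left out, -0.23 without RA-deficient replicate 3. Library size only moved the median of all genes to -0.31 here and to -0.27 between the PL groups. Between the PL groups the count of 6 was 10 with the 9 libraries in 1 fit, 11 with DESeq2, 0 at 0.01 and 0 to 16 with each library left out. The axoneme count of RA-deficient PL cells against In/B was 11 with DESeq2, 3 at 0.01 and 3 to 18 with each library left out. Between the PL groups it was 16 with library size only, 26 with the 9 libraries in 1 fit, 27 with DESeq2, 2 at 0.01 and 2 to 58 with each library left out. Except on an adjusted p alone, the share of all genes called under these alternatives was not counted. With 1 library left out, the log2 fold change of RA-deficient PL cells against In/B changed sign for Ift43 (-0.52 to 0.11), Ift57 (-0.44 to 0.080), Ttc30a2 (-0.27 to 1.06) and Tctn1 (-0.038 to 0.57). The log2 fold change between the PL groups changed sign for Ttc30a1 (-1.13 to 0.0048). With library size only that of Tctn2 between the PL groups was -0.032. None of these was called. The cause was not tested. Replicate numbers did not pair the libraries (correlations -0.25 to 0.12). With a replicate block Ift57 (-1.21, edgeR, BH-adjusted p = 0.0606), Ift172 (-1.17, 0.076) and Ift22 (-1.82, 0.0569) were no longer called, and the count between the PL groups was 4. With 3 libraries a group and low-count genes such as Ttc30a2, small differences were not detectable at this depth.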
